A study of Mus musculus with 6 samples.

Results

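The long class of the small RNAs in these libraries holds every sequence of 27 to 44 bases, chosen by length alone from files that list distinct sequences, called tags here, with the number of reads of each. Over the 6 libraries 706136 of 3958863 distinct tags were long, and the other 3252727 had 18 to 26 bases. The cells were J1, a mouse embryonic stem cell line, adapted to growth on gelatin in medium with 1000 U/ml leukemia inhibitory factor, which keeps the cells undifferentiated. All groups shared that line and medium, and each was treated for 24 h and sequenced once. The treatments were 1 µM retinoic acid, an inducer of differentiation, 1 µM BIO and 3 µM CHIR99021, which both inhibit the kinase GSK3, and 50 µg/ml vitamin C, a cofactor of dioxygenases. The control cultures received 1 µL of a vehicle: DMSO for the first 3 compounds and ddH2O for vitamin C. With 1 library per group and no replicates no test between conditions was possible, and every comparison below is between 2 libraries. The 95% intervals are exact Clopper-Pearson or conditional binomial intervals. They cover counting error only, since the sources name no molecular identifiers by which to tell molecules from copies, and the variation between cultures is not in them.

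The libraries held 18870345 to 23758363 reads in all, of which 1018633 (retinoic acid) to 4541014 (BIO) were long. Hairpins that mark mouse embryonic stem cells, from the miR-290 and miR-302 clusters, were present in each library, with 11 to 13 of 14 detected. Their summed level, in reads per 1000000 reads of the library (RPM), was 31406 RPM in DMSO, 21873 in ddH2O, 27139 in BIO, 19406 in CHIR99021, 5887 in retinoic acid and 24112 in vitamin C, lowest in retinoic acid and highest in its vehicle library, and its part in the results below was not tested. Summed levels of the marker hairpins of other cell types were 83.5 to 209 for fibroblasts, 47.3 to 533 for neurons and 34.9 to 242 for muscle. The liver hairpin Mir122 stood at 79.7 RPM in CHIR99021 and at 2.06 to 2.91 in the other 5 libraries, and its part was not tested either. For the BIO library the label records a loss of raw data.

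RNAs of this length are longer than microRNAs, which the enzyme Dicer releases from hairpins. The best known longer class is that of the piRNAs, which bind PIWI proteins and silence transposons in the germ line, and which mostly begin with U (T in these files). Fragments of tRNA, Y RNA, small nucleolar RNA (snoRNA) and ribosomal RNA fall in the same range, and some of them arise by cleavage in loops of the parent RNA. Y RNAs are short noncoding RNAs that bind the Ro60 protein. SnoRNAs guide the modification of other RNAs, mostly ribosomal RNA.

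Long tags from among the 10 with the highest mean share over the 6 libraries are shown first, since they set much of what follows. Each is written 5′ to 3′ with its first 26 bases in lower case and the bases that make it long, from position 27 on, in capitals. Unmatched tags are named here by their first bases and their length.
AGGTG 27-mer: aggtgtagaataagtgggaggcccccG
AGGTG 28-mer: aggtgtagaataagtgggaggcccccGG
AGGTG 30-mer: aggtgtagaataagtgggaggcccccGGCG
AGAGG 29-mer: agaggtgtagaataagtgggaggcccCCG
GTGGG 29-mer: gtggggagtttgactggggcggtacaCCT
GTGGG 30-mer: gtggggagtttgactggggcggtacaCCTG
TGGGG 29-mer: tggggagtttgactggggcggtacacCTG
TCCTC 28-mer: tcctcgcgtcggggtcggggcacgccGG
Gm23212 28-mer: cctgcatgatgacgaacaaatactgaCT
The AGAGG 29-mer is the AGGTG 27-mer with AG in front, the TGGGG 29-mer is the GTGGG 30-mer without its first base, and the 3 AGGTG tags begin alike and end at different points. Of those shown, only the Gm23212 28-mer matched a searched transcript. It is the 5′ end of the 60-base snoRNA gene Gm23212, at chr1:161036682-161036709 of GRCm38 within the region of the snoRNA host gene Gas5. The search was for exact matches to GENCODE M21 transcripts. Nuclear tRNA, large-subunit ribosomal RNA and the genome were not used here, so where the unmatched tags come from was not tested. Whether the searched transcripts cover the whole small-subunit ribosomal RNA was not checked, so unmatched tags may include parts of it.

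Tags that matched an annotated small RNA and that carry results below follow, with GRCm38 positions from the same match.
Rny1 30-mer: ggctggtccgaaggtagtgagttatcTCAA
Rny1 27-mer: ttctcactactgcacttgactagtctT
Rnu3a 27-mer: agagggagaggacacagtctgagtggT
Rnu3b1 27-mer: agagggagggaacgcagtctgagtggA
Mir182 27-mer: tttggcaatggtagaactcacaccggT
Gm26083 30-mer: acggtctgggaaaaggctcctgtgtgGCTG
Gm42418 28-mer: ctaggaataatggaataggaccgcggTT
The Rny1 30-mer is the 5′ end of the 112-base Y1 RNA (chr6:47788151-47788180, minus strand), and the Rny1 27-mer begins at base 84 of it and ends near its 3′ end (chr6:47788071-47788097). The Rnu3a 27-mer (chr10:40258653-40258679) ends at the next to last base of U3 snoRNA, which takes part in cleaving the ribosomal RNA precursor. The Rnu3b1 27-mer (chr11:87443425-87443451 in 1 of its copies) matched 6 genes and cannot be given to 1 of them. The Mir182 27-mer (chr6:30165960-30165986) begins within the hairpin of the miR-183 cluster member miR-182, and the Gm26083 30-mer (chr11:117077243-117077272) is the 5′ end of a small Cajal body RNA, a guide for the modification of spliceosomal RNA. Gm42418 is a gene annotated over a ribosomal RNA repeat on chromosome 17. Its 28-mer lies at chr17:39847215-39847242.

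The last set holds the unmatched and Gm42418 tags with large differences between libraries that are described below.
AGAAG 31-mer: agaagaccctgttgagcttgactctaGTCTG
AGCTA 30-mer of Gm42418: agctaggaataatggaataggaccgcGGTT
AGGAA 30-mer: aggaaactctggtggaggtccgtagcGGTC
GCGTT 29-mer: gcgttggtggtatagtggtgagcataGCT
GCGTT 28-mer: gcgttgtggtatagtggtgagcatagCT
GGGGG 27-mer: gggggtgtagctcagtggtagagcgtG
CGCGT 28-mer: cgcgtcgcggcgtgggaaatgtggcgTA
GGAAC 28-mer: ggaacgggcttggcggaatcagcgggGA
CGAAC 27-mer of Gm42418: cgaacgagactctggcatgctaactaG
GTTGA 27-mer: gttgatcctgccagtagcatatgcttG
GCCGG 27-mer: gccggtacagtgaaactgcgaatggcT
AAGAA 28-mer: aagaacgaaagtcggaggttcgaagaCG
The AGCTA 30-mer is the Gm42418 28-mer with AG in front (chr17:39847213-39847242). The CGAAC 27-mer lies at chr17:39847739-39847765 of the same gene.

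Of all reads, long reads made up 12% in DMSO, 16.4% in ddH2O, 20.4% in BIO, 10.1% in CHIR99021, 5.26% in retinoic acid and 7.62% in vitamin C. The BIO library had the largest share and the retinoic acid library the smallest, and the 2 vehicle libraries lay between them and apart from each other. The intervals of these shares reached at most from 20.38 to 20.42% (BIO), so no 2 libraries overlapped in counting error. Against its vehicle library the long share was 2.27-fold lower in retinoic acid (95% interval 2.27 to 2.28), 1.71-fold higher in BIO (1.70 to 1.71), 1.18-fold lower in CHIR99021 (1.18 to 1.19) and 2.15-fold lower in vitamin C (2.14 to 2.15). The distance between the vehicle libraries, which received no active compound, was 1.37-fold (ddH2O over DMSO, 1.367 to 1.371). The difference of CHIR99021 from DMSO was smaller than that distance, and BIO was 1.25-fold above ddH2O. BIO and CHIR99021 were given at different doses, so their values stand side by side without a comparison.

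The shortest reads went partly the other way. Reads of 18 and 19 bases made up 10.9% in DMSO, 11% in ddH2O, 8.01% in BIO, 15.8% in CHIR99021, 14.4% in retinoic acid and 18.7% in vitamin C, so the 3 libraries with the smallest long shares had the 3 largest shares at that end. Vitamin C and not retinoic acid was highest there, and ddH2O was slightly above DMSO as it was for long reads. Both shares are of the same total, so they are not independent. The length range selected and the trimming of adapters are not given in the sources used here, and their part in the length profiles was not tested. By distinct tags in place of reads, the long share was 15.9% in DMSO, 20.3% in ddH2O, 24.3% in BIO, 13% in CHIR99021, 11.9% in retinoic acid and 10.6% in vitamin C, with vitamin C lowest.

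Nearly all long reads lay just above the lower bound of the class. Those of 27 to 30 bases were 93.3 to 99.3% of long reads, and the mean length was 28 in DMSO, 28.4 in ddH2O, 28.5 in BIO, 27.8 in CHIR99021, 27.5 in retinoic acid and 27.7 in vitamin C. At 27 bases the level was 48358 RPM in DMSO, 51829 in ddH2O, 60367 in BIO, 46223 in CHIR99021, 33188 in retinoic acid and 38281 in vitamin C, a spread of less than 2-fold. At 30 bases it was 8291 in DMSO, 24021 in ddH2O, 33690 in BIO, 4876 in CHIR99021, 797 in retinoic acid and 2376 in vitamin C. The BIO and ddH2O libraries stood highest at 30 bases and the retinoic acid library lowest, more than 40-fold below BIO. Reads of 30 bases per read of 27 bases came to 0.171 in DMSO, 0.463 in ddH2O, 0.558 in BIO, 0.105 in CHIR99021, 0.0240 in retinoic acid and 0.0621 in vitamin C.

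The distance between libraries widened with each added base up to 30. Over lengths of 27, 28, 29, 30 and 31 to 33 bases, the level in retinoic acid was 0.686, 0.356, 0.201, 0.0961 and 0.149 times that in DMSO. In vitamin C it was 0.739, 0.577, 0.285, 0.0989 and 0.0612 times that in ddH2O, and in CHIR99021 0.956, 0.826, 0.767, 0.588 and 0.396 times that in DMSO. In BIO the ratios ran the other way, at 1.25, 1.38, 1.90, 4.06 and 7.73 times DMSO, and the ddH2O library followed them at 1.07, 1.16, 1.44, 2.90 and 6.10 times DMSO. The order of the libraries at 30 bases was therefore BIO, ddH2O, DMSO, CHIR99021, vitamin C and retinoic acid, and no neighbours in it overlapped in counting error. The retinoic acid ratio turned back only from 31 to 33 bases on, and above 33 bases it was 4.84 (95% interval 4.44 to 5.29). Of those longest reads in retinoic acid, 57.2% shared their last 8 bases, as described at the end.

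Tags were also grouped by their first 18 bases, called a start here. Of these starts, 54 had a mean of at least 10 RPM at both 27 and 30 bases. At 30 bases that mean came mostly from BIO and ddH2O, so the starts were kept through the libraries where this length is high, and the counts describe them without adding support to the ratios above. The median log2 ratio of 30-base to 27-base reads per start, with 0.5 added to each count, was -1.86 in DMSO, 0.55 in ddH2O, 0.15 in BIO, -3.26 in CHIR99021, -6.32 in retinoic acid and -4.91 in vitamin C. That ratio was lower in retinoic acid than in DMSO for 51 of 54 starts, with a median difference of -4.31 (log2). It was lower in vitamin C than in ddH2O for 51 (-5.01) and lower in CHIR99021 than in DMSO for 49 (-1.14). It was higher in BIO than in DMSO for 49 (1.66) and higher in ddH2O than in DMSO for 49 (1.40). Below 27 bases the direction turned, less clearly for CHIR99021 and ddH2O. At 24 against 27 bases, over 180 starts, the ratio was higher in retinoic acid than in DMSO for 146 and lower in BIO than in DMSO for 145. It was higher in vitamin C than in ddH2O for 138. In CHIR99021 it was higher than in DMSO for 105 and lower for 75, and in ddH2O lower than in DMSO for 104 and higher for 76. The comparisons of retinoic acid, BIO, CHIR99021 and ddH2O all use the 1 DMSO library and are not independent of each other.

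The AGGTG start shows the change base by base. Its 24-base forms stood at 41415 RPM in DMSO, 27883 in ddH2O, 50207 in BIO, 33143 in CHIR99021, 41163 in retinoic acid and 23868 in vitamin C, and its 27-base forms at 10040.3 in DMSO, 8103 in ddH2O, 14259 in BIO, 13646 in CHIR99021, 9312 in retinoic acid and 7929 in vitamin C. In both, the 6 libraries lay within about 2-fold of each other and retinoic acid was close to DMSO. Its 28-base forms stood at 2854 in DMSO, 2552 in ddH2O, 5511 in BIO, 4784 in CHIR99021, 1207 in retinoic acid and 2549.8 in vitamin C. Its 30-base forms, mostly the AGGTG 30-mer, stood at 1765 in DMSO, 3304 in ddH2O, 4011 in BIO, 1010.4 in CHIR99021, 32.9 in retinoic acid and 149 in vitamin C. Thus at 30 bases the retinoic acid library was 53.6-fold below DMSO and the vitamin C library 22.2-fold below ddH2O, while at 27 bases they stood at 0.927 and 0.979 times their vehicle. The 31-base forms were rare in 4 libraries, at 8.11 in DMSO, 217 in ddH2O, 161 in BIO, 2.27 in CHIR99021, 0.361 in retinoic acid and 2.14 in vitamin C.

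The GTGGG start differed most at its longer form. It was at 1489 RPM in DMSO, 4352 in ddH2O, 5147 in BIO, 1912 in CHIR99021, 59.5 in retinoic acid and 90.1 in vitamin C for 29 bases. For 30 bases it was at 92.1 in DMSO, 3540.1 in ddH2O, 6056 in BIO, 35 in CHIR99021, 2.22 in retinoic acid and 9.47 in vitamin C. The 30-base form was thus the more abundant of the 2 in BIO alone, where it was 65.8-fold above DMSO (95% interval 62.7 to 69).

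The TCCTC start followed another pattern. Its 28-base forms, of which the TCCTC 28-mer is the main one, stood at 2154 RPM in DMSO, 3749 in ddH2O, 1860.2 in BIO, 384 in CHIR99021, 166 in retinoic acid and 2643 in vitamin C. Vitamin C was at 0.705 times ddH2O here, higher than DMSO, while CHIR99021 was 5.60-fold and retinoic acid 13-fold below DMSO. BIO was at 0.864 times DMSO, below it and not above. In this start ddH2O was highest.

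When tags that share a run of 20 bases with a leading tag were put together, few groups held most of the class. The first group, 3991 distinct tags that share 20 bases with the AGGTG 27-mer, held 19.99% in DMSO, 16.4% in ddH2O, 21.5% in BIO, 28.9% in CHIR99021, 27.2% in retinoic acid and 21.6% in vitamin C, taken of long reads. Its largest shares were in CHIR99021 and retinoic acid. The first 5 groups held 35.3 to 45.4%, the first 10 48.7 to 59.9% and the first 15 54.8 to 65.1%. The group around the GTGGG 29-mer held 6.05% in DMSO, 9.92% in ddH2O, 13% in BIO, 8.82% in CHIR99021, 4.10% in retinoic acid and 3.47% in vitamin C. Of the 15 groups, 2 were led by a Gm42418 tag and 2 by a snoRNA tag, and the leading tags of the rest matched no searched transcript.

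The class was concentrated in few tags in every library. Of long reads, the most abundant tag held 8.25% in DMSO, 4.86% in ddH2O, 6.88% in BIO, 13.3% in CHIR99021, 17.5% in retinoic acid and 10.2% in vitamin C. The 10 most abundant of each library held 23.6% in DMSO, 21.1% in ddH2O, 25.6% in BIO, 30.4% in CHIR99021, 31.8% in retinoic acid and 25.9% in vitamin C. The number of tags that together held 50% of long reads was 56 in DMSO, 68 in ddH2O, 50 in BIO, 33 in CHIR99021, 36 in retinoic acid and 50 in vitamin C, against 267 to 453 among tags of 18 to 26 bases. Retinoic acid and CHIR99021 needed the fewest and ddH2O the most.

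Distinct long tags numbered 144512 in DMSO, 188924 in ddH2O, 241825 in BIO, 137129 in CHIR99021, 89579 in retinoic acid and 105495 in vitamin C. Thinned to the 1018633 long reads of the smallest class, the expected numbers were 77205 in DMSO, 74370 in ddH2O, 73507 in BIO, 69502 in CHIR99021, 89579 in retinoic acid and 74705 in vitamin C. Retinoic acid, lowest in distinct tags as counted, was highest at equal depth. Tags counted once made up 82.1% of its distinct long tags, the largest share of the 6 libraries. With such tags left out, and without thinning, retinoic acid again had the fewest, 16018. Tags counted once in their library made up 78.6 to 82.1% of distinct long tags and 4.20 to 7.22% of long reads. Across libraries, 10651 long tags (1.51%) were found in all 6 and held 88.6 to 92.1% of long reads. A further 612022 (86.7%) were found in 1 library alone and held 4.11 to 6.02%. The first 18 bases of 94.2 to 96.4% of long reads also began a tag of 18 to 26 bases in the same library, so nearly all long reads had a shorter form with the same 5′ end. By distinct long tags the share was 37.5 to 43.5%, so most distinct long tags had no such shorter form in their library.

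Over the whole class long reads began most often with A, as did reads of 18 to 26 bases. The lead of A among long reads rested partly on the leading tags and on length. Most piRNAs begin with T. Of long reads, A stood first in 33.9% in DMSO, 30.2% in ddH2O, 34.8% in BIO, 43.2% in CHIR99021, 44.6% in retinoic acid and 35.3% in vitamin C. T stood first in 20.8% in DMSO, 22% in ddH2O, 21.9% in BIO, 18% in CHIR99021, 15.9% in retinoic acid and 19.1% in vitamin C. The A share was highest in retinoic acid and CHIR99021, where the AGGTG group was also largest. With the 10 most abundant long tags left out, the A share was 26.1% in DMSO, 26.2% in ddH2O, 28.8% in BIO, 31.1% in CHIR99021, 31.2% in retinoic acid and 25.4% in vitamin C, and by distinct tags it was 30.8 to 34.2%. The G share without those 10 tags was 31.2% in DMSO, 26.4% in ddH2O, 28.8% in BIO, 28.5% in CHIR99021, 27.5% in retinoic acid and 28.7% in vitamin C, above the A share in DMSO, ddH2O and vitamin C, close to it in BIO and below it in CHIR99021 and retinoic acid. By single length, A led in every library at 27 bases (33.9 to 50.3%) and at 30 (37.3 to 65.1%). At 29 bases T stood first in 32.9% in DMSO, 27.2% in ddH2O, 32.3% in BIO, 33.1% in CHIR99021, 25.2% in retinoic acid and 24.1% in vitamin C, and it led there in DMSO, BIO and CHIR99021. At 28 bases G led in DMSO and T in ddH2O, and A in the other 4 libraries. At 31 to 33 bases C led in 5 libraries and T in BIO. G stood first in 21.6 to 27.1% of long reads against 15.5 to 17% of reads of 18 to 26 bases, and C in 16.1 to 22.9% against 26.3 to 31.5%. A stood first among those shorter reads in 35.4% in DMSO, 34.4% in ddH2O, 36.8% in BIO, 34.7% in CHIR99021, 36.4% in retinoic acid and 32.6% in vitamin C. That was above the long reads in DMSO, ddH2O and BIO and below them in the rest. T stood first in 18.3 to 21.3% of the shorter reads. T at position 1 and A at position 10 are each known from piRNAs. Among reads of 27 to 32 bases, A at position 10 was found in 30.4 to 45.8% of reads and 26.5 to 29.7% of distinct tags. Both letters stood in 1 read in 1.75% in DMSO, 2.10% in ddH2O, 1.54% in BIO, 2.23% in CHIR99021, 3.83% in retinoic acid and 2.21% in vitamin C. In each library that share was below the product of the separate shares of both letters. Distinct tags of that length began with T in 20.8 to 23.4%, a share close to equal use of the 4 bases.

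Most long reads matched no searched transcript: 81.6% in DMSO, 82% in ddH2O, 82.1% in BIO, 81.4% in CHIR99021, 77.7% in retinoic acid and 83.1% in vitamin C. Gm42418 was the largest matched class, at 10.6% in DMSO, 13% in ddH2O, 11.9% in BIO, 12.4% in CHIR99021, 16.6% in retinoic acid and 9.87% in vitamin C. SnoRNAs came next with 4.46% in DMSO, 2.57% in ddH2O, 3.20% in BIO, 3.59% in CHIR99021, 3.17% in retinoic acid and 3.89% in vitamin C. The share of Gm42418 was largest in retinoic acid and that of snoRNAs in DMSO. Y RNAs held 0.756% in DMSO, 0.225% in ddH2O, 0.409% in BIO, 0.122% in CHIR99021, 0.379% in retinoic acid and 0.524% in vitamin C, microRNA hairpins 0.0858 to 0.183% and other annotated transcripts 1.66 to 2.21%. The Y RNA share was lowest in CHIR99021, not in retinoic acid. Where either strand of a transcript was allowed to match, the Gm42418 tags fell to the class of annotated ribosomal RNA, which then held 12.2 to 19.4% of long reads.

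Levels in RPM set the classes against each other. For Gm42418 the long level was 0.688 times DMSO in retinoic acid, 1.91 times in BIO, 0.989 times in CHIR99021 and 1.68 times in ddH2O, and 0.353 times ddH2O in vitamin C. The long share of all Gm42418 reads was 10.9% in DMSO, 15.1% in ddH2O, 18.8% in BIO, 10.2% in CHIR99021, 5.34% in retinoic acid and 5.90% in vitamin C. This order of libraries is that of the long share of all reads. Its 28-mer stood at 1248 RPM in DMSO, 1704 in ddH2O, 1757 in BIO, 1395 in CHIR99021, 685 in retinoic acid and 719 in vitamin C. In the 28-mer vitamin C was 2.37-fold lower than ddH2O.

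Among snoRNAs, Gm23212 held the most long reads, at 3366 RPM in DMSO, 3013 in ddH2O, 4008 in BIO, 2164 in CHIR99021, 792 in retinoic acid and 2167 in vitamin C. Its short reads stood at 1462 in DMSO, 1266 in ddH2O, 1376 in BIO, 897 in CHIR99021, 431 in retinoic acid and 1131 in vitamin C. The long form was the more abundant in every library, with 64.8 to 74.4% of the reads of this gene, a narrower spread than for the class as a whole. The Gm23212 28-mer alone stood at 1815 in DMSO, 1542 in ddH2O, 2201 in BIO, 1171 in CHIR99021, 364 in retinoic acid and 1118 in vitamin C. It was 4.98-fold lower (95% interval 4.85 to 5.11) in retinoic acid than in DMSO, 1.21-fold higher in BIO and 1.55-fold lower in CHIR99021, and 1.38-fold lower in vitamin C than in ddH2O.

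U3 gave long reads from its 3′ end. The Rnu3a 27-mer stood at 967 RPM in DMSO, 456 in ddH2O, 1111 in BIO, 756 in CHIR99021, 487 in retinoic acid and 423 in vitamin C. The Rnu3b1 27-mer stood at 499 in DMSO, 212 in ddH2O, 628 in BIO, 406 in CHIR99021, 200.2 in retinoic acid and 158 in vitamin C. In both, vitamin C, ddH2O and retinoic acid were low, and ddH2O was 2.12-fold lower (95% interval 2.07 to 2.17) than DMSO for the Rnu3a 27-mer. Vitamin C was at 0.927 times ddH2O for that tag, while the long share of all reads was 0.465 times. Long reads were 25.5 to 34.3% of Rnu3a reads. For snoRNAs together the long level was 1.22 times DMSO in BIO, 0.680 times in CHIR99021, 0.313 times in retinoic acid and 0.789 times in ddH2O, and 0.704 times ddH2O in vitamin C.

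The small Cajal body RNA Gm26083 differed more between libraries in its long reads than in its short ones. The long reads stood at 14.6 RPM in DMSO, 20.5 in ddH2O, 30.2 in BIO, 5.81 in CHIR99021, 0.826 in retinoic acid and 3.64 in vitamin C, and its short reads at 5.56 to 13.5. Of its reads, long ones were 72.4% in DMSO, 74.9% in ddH2O, 84.1% in BIO, 46.6% in CHIR99021, 9.88% in retinoic acid and 21.2% in vitamin C. They were the more abundant form in DMSO, BIO and ddH2O and the less abundant one in retinoic acid and vitamin C. In CHIR99021 the interval of the share, 40.8 to 52.5%, held 50%. The Gm26083 30-mer was at 13.2 RPM in BIO and had 0 reads in retinoic acid, where 3 counts would be 0.155 RPM.

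Y1 RNA, encoded by Rny1, gave long reads from both ends, and the ends did not go together. Long reads that begin within 5 bases of its 5′ end stood at 704 RPM in DMSO, 186 in ddH2O, 637 in BIO, 33.7 in CHIR99021, 25 in retinoic acid and 294 in vitamin C. Short reads with that 5′ end stood at 135 in DMSO, 83.9 in ddH2O, 128 in BIO, 129 in CHIR99021, 24.4 in retinoic acid and 119.9 in vitamin C. In CHIR99021 the long 5′ reads were 20.9-fold below DMSO (95% interval 19.5 to 22.5), while the short ones were at 0.955 times DMSO (0.906 to 1.01). In retinoic acid the long 5′ reads were 28.1-fold and the short ones 5.53-fold below DMSO. Long reads that reach the last 5 bases stood at 179 in DMSO, 169 in ddH2O, 174 in BIO, 84.2 in CHIR99021, 170.2 in retinoic acid and 98.1 in vitamin C, which put retinoic acid at 0.951 times DMSO (0.906 to 0.998) and CHIR99021 at 0.471 times.

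The Rny1 30-mer alone stood at 453 RPM in DMSO, 125 in ddH2O, 400.4 in BIO, 20.8 in CHIR99021, 15.3 in retinoic acid and 201 in vitamin C. The Rny1 27-mer from the 3′ end stood at 97.1 in DMSO, 94 in ddH2O, 88.1 in BIO, 45.9 in CHIR99021, 116 in retinoic acid and 64.5 in vitamin C. For the 30-mer, DMSO and BIO were high, vitamin C and ddH2O intermediate, and CHIR99021 and retinoic acid low. Vitamin C was 1.61-fold higher (95% interval 1.54 to 1.70) than ddH2O in this tag, against the direction of the class, and BIO was at 0.885 times DMSO although its reads of 30 bases were 4.06-fold above DMSO. Long 5′ reads of Rny3, the gene of the other mouse Y RNA, were fewer, at 16.3 RPM in DMSO, 8.40 in ddH2O, 16.8 in BIO, 3.70 in CHIR99021, 0.929 in retinoic acid and 4.08 in vitamin C. They were lowest in retinoic acid, and vitamin C was below ddH2O, unlike in the Rny1 30-mer.

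MicroRNA hairpins gave few long reads, and the Mir182 27-mer led them at 132 RPM in DMSO, 123 in ddH2O, 119 in BIO, 58.3 in CHIR99021, 28.6 in retinoic acid and 104 in vitamin C. Short reads of Mir182, a hairpin of the miR-183 cluster, stood at 872 in DMSO, 610.04 in ddH2O, 736 in BIO, 548 in CHIR99021, 174 in retinoic acid and 615 in vitamin C. Long reads were 10.4 to 18% of the Mir182 total, a narrower range than the 5.26 to 20.4% of the class. For the other searched genes, long reads were 3.03 to 16.5% of the reads of Rn5s (5S ribosomal RNA, matched to 50 gene copies), 9.31 to 24.2% of mt-Rnr2 (mitochondrial large-subunit ribosomal RNA), 3.34 to 14.8% of Rn7sk (7SK RNA, a regulator of transcription elongation) and 4.05 to 31.5% of Rmrp (the RNA of RNase MRP). For Rn5s, mt-Rnr2 and Rn7sk the retinoic acid or vitamin C library was lowest and BIO highest, as for the class. For Rmrp the DMSO library was highest.

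Single long tags were then compared between libraries. A tag entered where it had at least 10 RPM in the higher library, and was called where the libraries differed at least 2-fold and the interval of the ratio did not hold 1. Such a call is about 2 libraries, not about the conditions. Because the minimum applies to the higher library, a tag that passed through that library alone had to differ, so the counts and medians below describe the tags that passed and are no separate support for the difference in the long share. In retinoic acid against DMSO, 940 of 214306 long tags seen in either library reached the minimum, of which 49 had a call above DMSO and 639 below it. Over all tags of 18 to 44 bases 26.8% were called higher and 27.6% lower. The median log2 ratio was -2.20 over long tags and 0.11 over all tags. Scaled to the long reads of each library, there were 166 calls upward and 473 downward at a median of -1.02, and scaled to the reads of the same length 146 and 445 at a median of -0.83. Shares over all tags were not computed for these scalings or for other control libraries, here or below.

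The tags named here had at least 100 RPM in the higher library, and among those called the 2 GCGTT tags had the smallest ratios of retinoic acid to DMSO. The GCGTT 29-mer stood at 617 RPM in DMSO, 449.8 in ddH2O, 1319 in BIO, 44.7 in CHIR99021, 2.17 in retinoic acid and 7.09 in vitamin C. It was 284-fold lower (95% interval 210.3 to 395) in retinoic acid than in DMSO and 63.5-fold lower in vitamin C than in ddH2O. The GCGTT 28-mer, at 103 in DMSO, 87.7 in ddH2O, 191 in BIO, 10.2 in CHIR99021, 0.310 in retinoic acid and 1.70 in vitamin C, went with it. The AGGAA 30-mer stood at 492 in DMSO, 1219.8 in ddH2O, 1134 in BIO, 242 in CHIR99021, 5.47 in retinoic acid and 249 in vitamin C and was 89.96-fold lower in retinoic acid. Within the same limit, and with 1 tag per start, the 5 largest ratios in the other direction were all of 27-mers. The CGAAC 27-mer of Gm42418 stood at 39.6 in DMSO, 155 in ddH2O, 75.5 in BIO, 78.6 in CHIR99021, 277 in retinoic acid and 38.1 in vitamin C and was 6.99-fold higher (95% interval 6.47 to 7.55) in retinoic acid than in DMSO. The GTTGA 27-mer stood at 37.7 in DMSO, 70.6 in ddH2O, 38.1 in BIO, 56.3 in CHIR99021, 165 in retinoic acid and 42.8 in vitamin C and was 4.36-fold higher (95% interval 4.02 to 4.74). For both, retinoic acid was above the other 5 libraries. Scaled to reads of the same length they were 10.2-fold and 6.35-fold above DMSO.

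In BIO against DMSO, 1264 of 348402 long tags reached the minimum. Of these 390 (30.9%) were called higher in BIO and 39 (3.09%) lower, where 5.47% and 12.3% of all tags of 18 to 44 bases were. All tags include the long ones, and among tags of 18 to 26 bases the shares were 0.863% and 13.9%. The median log2 ratio was 0.57 over long tags and -0.17 over all tags. Scaled to long reads there were 238 calls upward and 168 downward at a median of -0.20, and scaled to the same length 205 and 148 at a median of -0.03. With ddH2O in place of DMSO as the control library, 296 were called higher and 269 lower, of 1481 tested.

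The tags described here as high in BIO over DMSO had 30 and 31 bases. The AGAAG 31-mer stood at 0.742 RPM in DMSO, 183 in ddH2O, 229 in BIO, 0.968 in CHIR99021, 0.0516 in retinoic acid and 0.243 in vitamin C. It was high in BIO and ddH2O and below 1 RPM in the other 4 libraries. BIO was 309-fold higher (95% interval 184 to 565) than DMSO for this tag. The AGCTA 30-mer of Gm42418 stood at 1.91 in DMSO, 113 in ddH2O, 276 in BIO, 0.758 in CHIR99021, 0.103 in retinoic acid and 0.0971 in vitamin C and was 144-fold higher (95% interval 104 to 206) in BIO than in DMSO. Among tags of at least 100 RPM, the GGGGG 27-mer had the smallest called ratio. It stood at 872 in DMSO, 925 in ddH2O, 227 in BIO, 69.8 in CHIR99021, 20.03 in retinoic acid and 477 in vitamin C and was 3.85-fold lower (95% interval 3.73 to 3.97) in BIO than in DMSO. Here BIO, CHIR99021 and retinoic acid were all below both vehicle libraries, and vitamin C was below ddH2O.

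In CHIR99021 against DMSO, 976 of 253344 long tags reached the minimum. Of these 71 were called higher in CHIR99021 and 355 lower, where 15.3% and 20% of all tags were. The median log2 ratio was -0.55 over long tags and -0.11 over all tags. Scaled to long reads there were 105 calls upward and 285 downward at a median of -0.30, and scaled to the same length 106 and 278 at a median of -0.29. With ddH2O as the control library 49 were called higher and 709 lower, of 1285 tested.

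Several tags were much lower in CHIR99021 than the reads of their length. The CGCGT 28-mer stood at 152 RPM in DMSO, 62.7 in ddH2O, 108 in BIO, 2.90 in CHIR99021, 2.01 in retinoic acid and 57.6 in vitamin C and was 52.3-fold lower (95% interval 41.2 to 67.4) in CHIR99021 than in DMSO. Scaled to reads of 28 bases it was still 43.2-fold lower. The Rny1 30-mer, described above, was 21.8-fold lower (95% interval 19.9 to 23.9), and 12.8-fold lower at its own length. The GGAAC 28-mer stood at 716 in DMSO, 201 in ddH2O, 1422 in BIO, 54.5 in CHIR99021, 26.9 in retinoic acid and 61 in vitamin C and was 13.1-fold lower (95% interval 12.4 to 13.9) in CHIR99021. All 3 tags were low in retinoic acid too. Among called tags of at least 100 RPM in the higher library, the GCCGG 27-mer had the largest ratio upward. It stood at 54.6 in DMSO, 145 in ddH2O, 92.5 in BIO, 156 in CHIR99021, 74 in retinoic acid and 88.2 in vitamin C and was 2.85-fold higher (95% interval 2.66 to 3.06) in CHIR99021 than in DMSO, with ddH2O at nearly the same level as CHIR99021.

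In vitamin C against ddH2O, 1246 of 267136 long tags reached the minimum. Of these 19 were called higher in vitamin C and 704 lower, where 14.6% and 14.2% of all tags were. The median log2 ratio was -1.19 over long tags and -0.01 over all tags. Scaled to long reads there were 159 calls upward and 391 downward at a median of -0.09, and scaled to the same length 147 and 390 at a median of -0.28. With DMSO as the control library 16 were called higher and 355 lower, of 934 tested.

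Low in vitamin C against ddH2O was a tag described above as high in BIO. The AGCTA 30-mer of Gm42418 had 2 reads in vitamin C against 2303 in ddH2O, a ratio of 1165 with an interval of 322 to 9625. Called higher among tags of at least 100 RPM were the AAGAA 28-mer and its form without the first base. The AAGAA 28-mer stood at 142 RPM in DMSO, 51.6 in ddH2O, 203 in BIO, 18 in CHIR99021, 108 in retinoic acid and 139.9 in vitamin C and was 2.71-fold higher (95% interval 2.52 to 2.91) in vitamin C than in ddH2O. In that tag vitamin C was close to DMSO, and it was ddH2O and CHIR99021 that were low.

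The 2 vehicle libraries give the distance that arose with no active compound. In ddH2O against DMSO, 1315 of 299144 long tags reached the minimum, and 491 were called higher in ddH2O and 89 lower, where 17.9% and 13.9% of all tags were. The median log2 ratio was 0.60 over long tags and 0.08 over all tags. Calls in both directions were 44.1% of the tags tested here. Against their own vehicle they were 73.2% in retinoic acid, 33.9% in BIO, 43.6% in CHIR99021 and 58% in vitamin C, with the shares over all tags given above by direction. At 4-fold the calls were 18.3% for ddH2O, 54.5% for retinoic acid, 18.1% for BIO, 21.1% for CHIR99021 and 33.5% for vitamin C. No share over all tags was computed at 4-fold, so these values cannot be called particular to long tags. Scaled to long reads there were 343 calls upward and 162 downward at a median of 0.15, and scaled to the same length 332 and 140 at a median of 0.27. The AGAAG 31-mer was 246-fold higher (95% interval 147 to 451) in ddH2O than in DMSO. The Rny1 30-mer was 3.63-fold lower (95% interval 3.48 to 3.80) and the GGAAC 28-mer 3.56-fold lower (95% interval 3.44 to 3.69).

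The longest reads, of 34 to 44 bases, were rare and went another way. Their reads numbered 617 in DMSO, 1549 in ddH2O, 1959 in BIO, 301 in CHIR99021, 3068 in retinoic acid and 409 in vitamin C. Their level was 32.7 RPM in DMSO, 76.1 in ddH2O, 88 in BIO, 12.7 in CHIR99021, 158 in retinoic acid and 19.9 in vitamin C. Retinoic acid, lowest at 30 bases, was highest over this range as a whole, and CHIR99021 and vitamin C stayed below their vehicle libraries. At 34 bases alone retinoic acid stood at 21 RPM, below ddH2O at 55.8 and BIO at 52.1. Many of these reads ended in the same 8 bases, CTCTGAAC, with a share of 27.6% in DMSO, 3.94% in ddH2O, 9.09% in BIO, 2.33% in CHIR99021, 57.2% in retinoic acid and 22.5% in vitamin C. The reads with that end numbered 170 in DMSO, 61 in ddH2O, 178 in BIO, 7 in CHIR99021, 1754 in retinoic acid and 92 in vitamin C, and the 1754 in retinoic acid came from 1693 distinct tags, so the bases before the end differed from read to read. Among reads of 40 to 44 bases the end was found in 49.1% in DMSO, 22.6% in ddH2O, 33.7% in BIO, 2.16% in CHIR99021, 79.8% in retinoic acid and 32.3% in vitamin C. Only in the retinoic acid library did more than 50% of the reads of 34 to 44 bases share it. Reads with this end thus made up most of the level that put retinoic acid highest. Without them the retinoic acid level was below those of BIO and ddH2O. At 42 bases all libraries had more reads than at 41 or 43, with 4.40 RPM in DMSO, 2.85 in ddH2O, 5.53 in BIO, 5.43 in CHIR99021, 19.4 in retinoic acid and 2.48 in vitamin C.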

How the data were processed

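Small RNA of 6 cultures was sequenced, and the authors deposited, for each library, a list of distinct sequences with their length and raw count. The counts were whole numbers and each sequence stood once per list. Per the labels' protocols, RNA was isolated with TRIzol, and 1 µg entered library construction by a TruSeq RNA kit. The submitters' processing notes name mm9. The aligner, the trimming and the size selection are not given in the sources used here. The members and lists were chosen with earlier results of these data known.

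Shares were taken of all reads of a library, with 95% Clopper-Pearson intervals. Ratios carry conditional binomial intervals. Between libraries a tag was called at a ratio of at least 2 whose interval did not hold 1, with at least 10 RPM in the higher library. A sequence was matched exactly, on the sense strand, to GENCODE M21 transcripts of GRCm38, and a match to several classes was given to the first in a fixed order. Named were the 10 tags with the highest mean share, for each comparison the 5 largest and 5 smallest called ratios at 100 RPM or more (1 tag per start of 18 bases), and the leading tags of each RNA class. That rule kept unmatched sequences unprinted. They are printed because most of the class had no match, a choice made after the values were seen. Some named tags are not reported here. Scaling to reads of the same length was likewise added after seeing the data. A tag at 0 was read against 3 counts. Alternatives included TMM (edgeR 4.0.16) and median-of-ratios (DESeq2 1.42.0) factors in R 4.3.3, used for scaling alone. The rest used Python 3.11.15, numpy 2.4.6, pandas 2.3.3 and scipy 1.17.1. The call between libraries was checked on simulated counts with counting error only, and the intervals on inputs with known answers. The matching and grouping of tags were not checked on simulated data.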

Additional observations from a re-analysis of the deposited data

How the results depend on the processing

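No paired analysis was possible because each group has 1 library and the labels give no shared replicate numbers, and no library could be left out in turn for the same reason. Values below are in the order DMSO, ddH2O, BIO, CHIR99021, retinoic acid and vitamin C, or for calls retinoic acid, BIO, CHIR99021, vitamin C and ddH2O, unless named. All 29 alternative ratios of the long share kept their direction and an interval without 1, with the other vehicle library, bounds of 30 to 44 or 27 to 43 bases, tags counted once, the 10 leading tags or matched ribosomal tags left out. Ribosomal tags here are those that matched annotated ribosomal RNA, mitochondrial ribosomal RNA or Gm42418. Nuclear-encoded large-subunit ribosomal RNA was not searched, and full coverage of the small-subunit RNA by the searched transcripts was not checked. Any tags of parts not searched stayed in, so this setting cannot show the part of ribosomal RNA as a whole. The long share was with tags of 20 to 44 bases as the total 13.4, 18.4, 22.2, 12, 6.14 and 9.37%, for 30 to 44 bases 1.01, 3.48, 4.73, 0.558, 0.122 and 0.305%, and without tags counted once 11.8, 16.2, 20.2, 9.96, 5.02 and 7.47%. It was without the 10 leading tags 9.57, 13.5, 16.1, 7.56, 4.15 and 6.08%, without ribosomal tags (DMSO, ddH2O, BIO, vitamin C) 12.1, 16.6, 20.6 and 7.87%, and by distinct tags 15.9, 20.3, 24.3, 13, 11.9 and 10.6%. The share beginning with A was by distinct tags 30.8, 31.9, 32.3, 34.2, 33.5 and 31.4%, without the 10 leading tags 26.1, 26.2, 28.8, 31.1, 31.2 and 25.4%, and without tags counted once 34.1, 30.1, 34.9, 43.6, 45.4 and 35.5%. The 10 leading tags of a library held without tags counted once 24.9, 22.1, 26.8, 31.9, 34.2 and 27.4%, and as families of shared starts 33.8, 33.2, 39.7, 41.9, 38 and 33%. Distinct long tags numbered without those counted once 30882, 39488, 51232, 28960, 16018 and 21207, and at the common depth (DMSO, ddH2O, BIO, CHIR99021) 77205, 74370, 73507 and 69502. Calls numbered with a minimum of 5 RPM 1116, 671, 714, 1160 and 976 (73.6, 33.3, 45.1, 59.6 and 46.7% of tags tested). With 50 they were 198, 131, 113, 188 and 147 (71.2, 33.8, 39, 51.1 and 38.1%), and with none 6406, 4257, 4927, 7205 and 5886 (2.99, 1.22, 1.94, 2.70 and 1.97%). They numbered with the other vehicle library (CHIR99021, vitamin C) 758 and 371 (59 and 39.7%), and at 4-fold (BIO, CHIR99021, vitamin C, ddH2O) 229, 206, 417 and 241 (18.1, 21.1, 33.5 and 18.3%). With shared starts summed (BIO, CHIR99021) they were 263 and 282 (29.6 and 38.4%). Shares over all tags of 18 to 44 bases were computed for the main setting alone. The unmatched share was on either strand 79.5, 80.03, 80.5, 79.5, 74.7 and 80.6%, by distinct tags 76.8, 78, 74.8, 74.3, 86.5 and 78.4%, and without the 10 leading tags 78.3, 78.6, 77.6, 76, 72.2 and 80.3%. The Gm42418 share was on either strand 0.0256, 0.0123, 0.0279, 0.0154, 0.00658 and 0.00943%, by distinct tags 1.21, 1.35, 0.971, 1.12, 1.38 and 1.31%, and without the 10 leading tags 13.6, 16.3, 15.8, 17.1, 21.3 and 12.6%. For snoRNA and Y RNA shares, 29 of 48 alternatives moved the value beyond its interval and 19 did not. In calls, the split of higher against lower changed with both length scalings as given above. The cause of these changes was not tested. A search for tRNA promoter letters beside genome matches was not run, since the genome was not used here. Depth limits single tags: 3 reads are 0.126 to 0.159 RPM.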
